A study of Homo sapiens with 6 samples.

Results

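Accessible chromatin at 8 imprinted gene loci was compared between subpopulations of human embryonic stem cells. The loci were fixed windows on the hg19 genome build, each named for the imprinted genes it holds, and a deposited region was a member when its midpoint lay inside a window. Of the 118556 regions in the count table, 57 were members. The window of H19 and IGF2 (chromosome 11, 2.0 to 2.2 Mb) held 16, KCNQ1OT1 (chromosome 11, 2.60 to 2.78 Mb) 4, CDKN1C (chromosome 11, 2.89 to 2.93 Mb) 5, SNRPN (chromosome 15, 25.05 to 25.25 Mb) 9, DLK1 and MEG3 (chromosome 14, 101.17 to 101.34 Mb) 9, MEST (chromosome 7, 130.10 to 130.16 Mb) 2, PEG10 (chromosome 7, 94.26 to 94.31 Mb) 5 and GNAS (chromosome 20, 57.39 to 57.51 Mb) 7. Within a window, position chose the members and no measured value was used. Regions are numbered within each window from the lowest coordinate.

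The samples were FAST-ATAC libraries, in which the Tn5 transposase cuts and tags open chromatin so that read density over a region measures its accessibility, from WA09, an established human embryonic stem cell line also called H9. Cells were sorted by flow cytometry on surface antigens of the pluripotent state into GCTM-2highCD9highEPCAMhigh cells (the high population, 3 libraries) and GCTM-2midCD9mid cells (the mid population, 3 libraries, called low in their titles). EPCAM was part of the gate in the high population only, and all 6 libraries came from this 1 line, so the comparison covers a single genetic background in culture. The study's methods call the replicates biological, and nothing said whether they came from separate cultures, so p-values measure the spread between these libraries. The libraries held 15486251 to 29025274 reads in all regions, with the high libraries at 17220035, 15486251 and 26225539 and the mid libraries at 29025274, 23091028 and 26338105. The mid libraries were on average the deeper ones. The members together took 0.0656% to 0.0695% of the reads of a high library and 0.083% to 0.0903% of those of a mid library. A member region held between 19 and 3020 reads in a library.

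Imprinted genes are expressed mainly from the maternal or the paternal copy, according to DNA methylation marks laid down in the egg or the sperm. Such marks sit at imprinting control regions, each of which governs a cluster of genes through insulators, long noncoding RNAs or promoters, and they are kept through the genome-wide demethylation of the early embryo. Cultured human pluripotent cells are known to lose or gain imprints at some loci. The reads were not split by parental copy here, so accessibility below is the sum of both copies. More cells with a region open and a wider opening in each cell cannot be told apart.

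Promoter sequence shows the letters on which imprinting marks act, since the marks are methyl groups on CpG dinucleotides. The following are 250 bases upstream of a transcription start from RefSeq, on build GRCh38.p14, 5′ to 3′ on the plus strand, with each CpG in capitals. They were chosen to show a start in 3 windows with called regions, one each of a small nuclear ribonucleoprotein gene, a noncoding RNA gene and the gene of a G protein subunit.
SNRPN, chr15:24954737-24954986: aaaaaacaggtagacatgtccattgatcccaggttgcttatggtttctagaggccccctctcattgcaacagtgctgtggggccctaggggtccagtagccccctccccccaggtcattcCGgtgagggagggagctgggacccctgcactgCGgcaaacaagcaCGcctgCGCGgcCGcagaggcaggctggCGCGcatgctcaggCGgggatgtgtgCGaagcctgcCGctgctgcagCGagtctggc
MEG3, chr14:100825858-100826107: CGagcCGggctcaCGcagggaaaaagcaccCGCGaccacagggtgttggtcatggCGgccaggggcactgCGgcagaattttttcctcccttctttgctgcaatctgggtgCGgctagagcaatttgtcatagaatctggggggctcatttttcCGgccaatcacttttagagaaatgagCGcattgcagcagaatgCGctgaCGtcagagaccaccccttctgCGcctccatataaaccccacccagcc
GNAS, chr20:58888930-58889179: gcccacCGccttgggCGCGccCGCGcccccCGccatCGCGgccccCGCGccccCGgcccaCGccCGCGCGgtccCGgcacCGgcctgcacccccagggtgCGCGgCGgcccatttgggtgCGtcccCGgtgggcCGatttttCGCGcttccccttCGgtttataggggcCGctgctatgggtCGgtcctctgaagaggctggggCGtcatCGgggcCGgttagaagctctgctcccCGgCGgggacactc
The stretches held 12, 13 and 33 CpG, against a median of 11 over the 35116 promoters of the RefSeq set used here. Each count was the highest among the starts of its gene in this set, a tie at MEG3. The other starts held 6, 1 and 6 CpG at SNRPN, 11 and 13 at MEG3 and 9 to 27 at GNAS. The hexamer TGCCGC, which holds a CpG and is the letters bound by the imprint-keeping zinc finger protein ZFP57, was searched on both strands and matched 2 times at SNRPN, 1 time at MEG3 and 0 times at GNAS, and 12.7% of all promoters held it. At the other starts it matched 0, 0 and 1 times at SNRPN, 1 time each at MEG3, and 1 time at the GNAS start of chr20:58839498-58839747. Of the 10 genes that name the windows, 5 (H19, MEG3, MEST, SNRPN and GNAS) had an entry in this set. They had 19 starts in all, holding between 1 and 33 CpG. IGF2, KCNQ1OT1, CDKN1C, DLK1 and PEG10 had no entry in the set, which does not mean that RefSeq holds no start for them. No hg19 annotation was used here, so the hg19 regions below were not placed on these starts, on exons or introns, or on imprinting control regions.

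Most of the regions in these 8 windows had more reads in the mid population. Of the 57 members, 15 (26.3%) were higher in mid and 0 were higher in high at an adjusted p under 0.01 (edgeR's quasi-likelihood test with same-numbered replicates as a block, Benjamini-Hochberg over all regions). Over all regions 3.77% were called higher in mid and 2.32% higher in high. The called members lay in H19 and IGF2 (4), SNRPN (4), GNAS (3), CDKN1C (2), KCNQ1OT1 (1) and DLK1 and MEG3 (1), and there were 0 in MEST and 0 in PEG10. The median log2 difference, high minus mid, was -0.36 over the 57 members and 0.03 over all regions. It was below 0 in 51 members (89.5%), against 46.5% of all regions, and below 0 in each of the 3 same-numbered pairs in 36 members (63.2%), against 22.4% of all regions. Without the replicate block 3 members (5.26%) were called higher in mid and 0 higher in high, against 1.11% and 0.236% of all regions. The count of 15 became 9 without pair 1 and 2 without pair 2. It became 2 when either library numbered 2 was left out, and 9 and 8 without the first high or the first mid library. With the block kept, the partner of a left-out library adds almost nothing to the difference. The fits without 1 library are thus not separate from those without its pair. The share of all regions called higher in mid was 3.66% without pair 1 and 0.369% without pair 2. It was 0.708% and 0.364% without the second high or the second mid library, and 3.83% and 3.23% without the first high or the first mid library. CDKN1C region 3, GNAS region 7 and SNRPN region 3 kept their calls without the block, and CDKN1C region 3 and GNAS region 7 kept theirs without pair 2. No called member changed direction in any of these fits. All 15 were below 0 in each same-numbered pair, so leaving out a pair could hardly change their direction. At an adjusted p under 0.05, 22 members (38.6%) were higher in mid and 1 (1.75%) in high, against 7.08% and 6.03% of all regions.

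**Figure D1:**
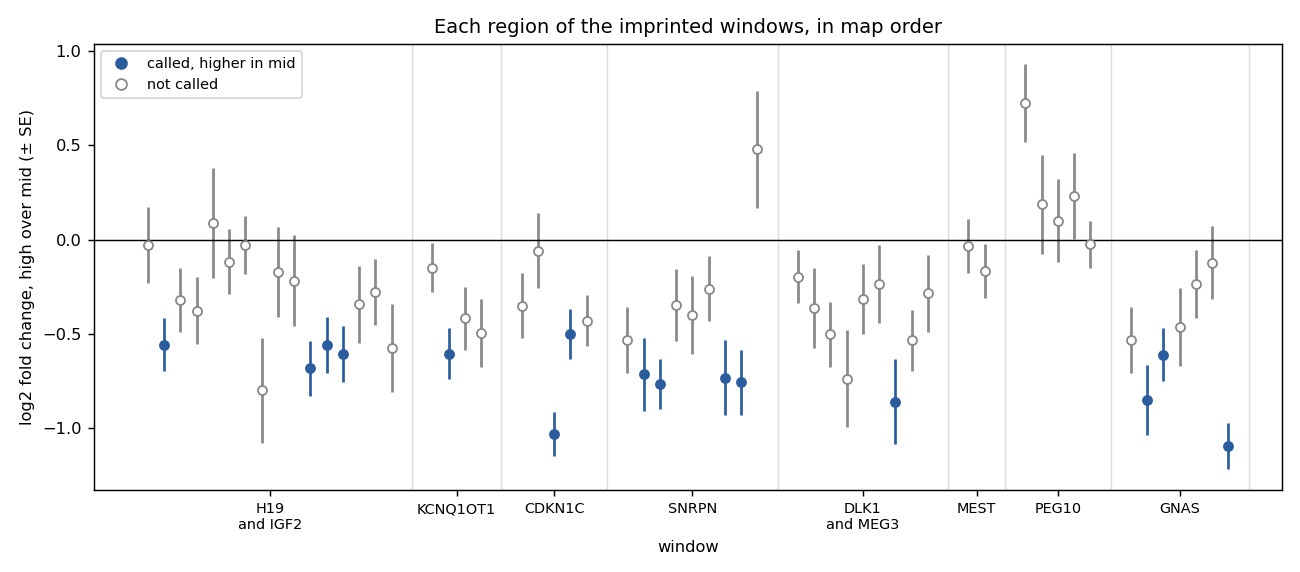
Log2 difference in accessibility, high minus mid, of each of the 57 member regions by window, with bars for 1 standard error and filled points for regions called at an adjusted p under 0.01. The 15 called regions all lie below 0, and CDKN1C region 3 and GNAS region 7 reach furthest down.

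Region width moved with the direction of change and the member regions were wide. The median width was 1322 bp over the members and 879 bp over all regions, and 15 of the 57 members (26.3%) were among the widest 10% of regions, of at least 2150 bp. Among the widest 10%, 22.4% of all regions and 10 of the 15 members (66.7%) were called higher in mid. Among the other 90%, 1.71% of all regions and 5 of the 42 members (11.9%) were called higher in mid. The median log2 difference of the wide members was -0.56, against -0.23 for all wide regions, and that of the other members was -0.32, against 0.06. When the trend with width was taken out of the counts by a loess curve in each library, 8 members (14%) were called higher in mid and 0 in high, against 2.45% and 2.74% of all regions. Taking out the trend with mean read density in the same way gave 11 members (19.3%) higher in mid and 0 in high, against 2.73% and 3.17%. The median over the members was -0.34 after the first correction and -0.36 after the second. Width was a measurement beside these results and its part in them was not tested beyond this.

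**Figure D2:**
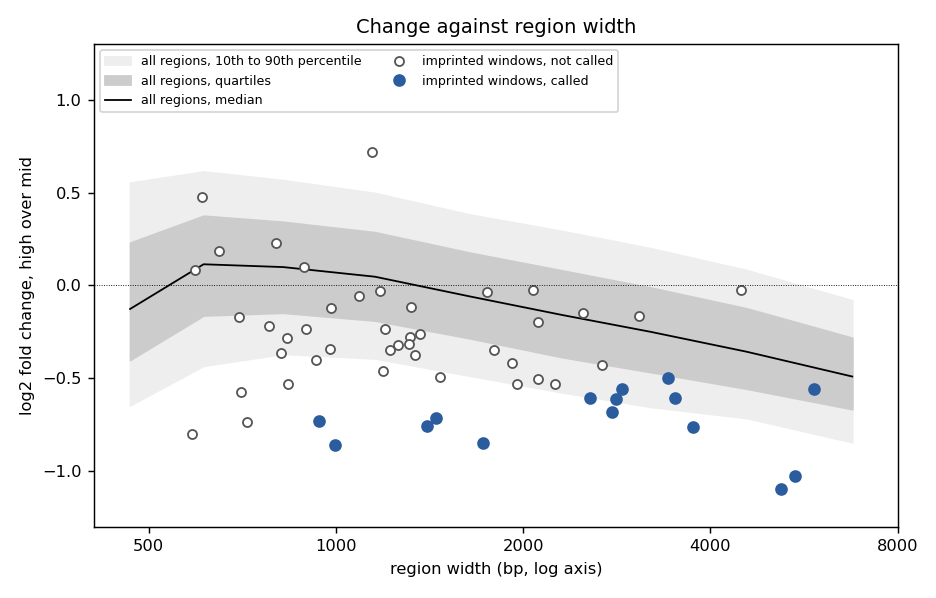
Log2 difference, high minus mid, against region width in bp on a log axis, with a line for the median of all regions in each width class, bands for the quartiles and for the 10th to 90th percentile and points for the 57 members, filled where called. The line rises from -0.13 under 500 bp to 0.11 between 500 and 700 bp, then falls with width to -0.36 between 4000 and 6000 bp and -0.49 above 6000 bp, and the called points lie below it.

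CDKN1C encodes a cyclin-dependent kinase inhibitor that restrains growth and is expressed from the maternal copy. Its window held the most changed region of the chromosome 11 loci. CDKN1C region 3 (chr11:2903024-2908501) had 51.4, 47.4 and 43.1 CPM (counts scaled to a common library size, with trimmed mean of M-values factors, TMM) in the 3 high libraries and 113.4, 96.7 and 81.2 in the 3 mid libraries. Every mid library was above every high library, with means of 97.1 ± 16.1 and 47.3 ± 4.17 (SD, n = 3), and the fitted difference was 2.04-fold. The log2 difference was -1.03 (SE 0.12), with an adjusted p of 1.643e-08 from edgeR, and -0.64 after the width correction. CDKN1C region 4 (chr11:2911253-2914677) had 18.8, 21.0 and 25.5 CPM in high and 29.1, 31.6 and 31.4 CPM in mid, also without overlap, with a log2 difference of -0.50 (SE 0.13, edgeR adjusted p 0.00816). This call was lost after the width correction (-0.25, adjusted p 0.178). The other 3 regions did not pass, at log2 differences of -0.35, -0.06 and -0.43.

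KCNQ1OT1 is a long noncoding RNA made from the paternal copy that silences its neighbours on that copy, CDKN1C among them. KCNQ1OT1 region 2 (chr11:2719347-2722850) had 21.9, 21.3 and 22.1 CPM in high and 37.3, 34.9 and 28.1 CPM in mid. The high libraries lay within 1 CPM of each other and below every mid library, with a log2 difference of -0.60 (SE 0.13, edgeR adjusted p 0.00128). Its call was lost after the width correction (-0.34, adjusted p 0.0503). The most read region of the window, KCNQ1OT1 region 1 (chr11:2713353-2715846), had 30.0, 32.9 and 38.2 CPM in high and 41.3, 36.1 and 34.7 CPM in mid, and these ranges overlapped (log2 difference -0.15, edgeR adjusted p 0.476). Regions 3 and 4 stood at -0.42 and -0.49 and did not pass.

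IGF2 encodes a fetal growth factor expressed from the paternal copy, and H19 a noncoding RNA from the maternal copy, under one shared control region. In their window 4 of 16 regions were called, and 15 of the 16 had a log2 difference below 0. The widest, H19 and IGF2 region 2 (chr11:2018663-2024524), had 22.7, 28.6 and 29.8 CPM in high and 49.1, 37.9 and 33.5 CPM in mid (log2 difference -0.56, SE 0.14, edgeR adjusted p 0.0043). Its call was lost after the width correction, where the difference was -0.15 with an adjusted p of 0.447. H19 and IGF2 region 11 (chr11:2156924-2159703) had 14.3, 15.5 and 13.7 CPM in high and 26.8, 22.5 and 21.0 CPM in mid, the clearest separation in the window (log2 difference -0.68, SE 0.14, edgeR adjusted p 7.124e-04). The next region along, H19 and IGF2 region 12 (chr11:2159820-2162700), had 12.9, 14.6 and 11.5 CPM in high against 17.5, 23.4 and 16.9 in mid (log2 difference -0.56, edgeR adjusted p 0.00758). H19 and IGF2 region 13 (chr11:2171312-2173875) had 11.4, 16.7 and 14.6 CPM in high against 22.6, 21.6 and 20.3 in mid (log2 difference -0.61, edgeR adjusted p 0.00367). In all 4 called regions the groups did not overlap. After the width correction region 11 kept its call (-0.48), and regions 12 and 13 lost theirs (-0.35, adjusted p 0.0849, and -0.43, adjusted p 0.0268). H19 and IGF2 region 8 (chr11:2130620-2131206) had the largest difference of the window at -0.80, on 1.44 CPM in high and 2.52 in mid, and did not pass at an adjusted p of 0.0472.

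SNRPN encodes a splicing protein expressed from the paternal copy in the region tied to Prader-Willi and Angelman syndromes. In its window 4 of 9 regions were called, 8 had a log2 difference below 0, and SNRPN region 9 stood at 0.48 on under 3 CPM in every library. SNRPN region 3 (chr15:25101235-25104982) had the most reads, at 20.4, 19.5 and 23.3 CPM in high and 36.6, 35.2 and 35.4 CPM in mid. The mid libraries were within 1.5 CPM of each other and all above the high libraries, with a log2 difference of -0.76 (SE 0.13, edgeR adjusted p 4.563e-05). SNRPN region 8 (chr15:25200875-25202276) had 6.45, 8.37 and 11.2 CPM in high and 15.7, 14.1 and 13.7 in mid (log2 difference -0.76, SE 0.17, edgeR adjusted p 0.00165). Its neighbour, SNRPN region 7 (chr15:25199651-25200591), had 3.54, 4.80 and 3.48 CPM in high and 7.17, 6.02 and 6.25 in mid (log2 difference -0.73, edgeR adjusted p 0.00865). SNRPN region 2 (chr15:25092082-25093528) had 3.99, 3.57 and 5.56 CPM in high and 7.85, 6.62 and 7.01 in mid (log2 difference -0.71, edgeR adjusted p 0.00883). The groups did not overlap in any of the 4. After the width correction regions 3, 7 and 8 kept their calls, at -0.48, -0.81 and -0.75, and region 2 lost its call (-0.70, adjusted p 0.0113).

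DLK1, a transmembrane inhibitor of differentiation from the paternal copy, and MEG3, a noncoding RNA from the maternal copy, share a cluster whose silencing is a known change of cultured pluripotent cells. All 9 regions of their window had a log2 difference below 0 and 1 was called. DLK1 and MEG3 region 7 (chr14:101296861-101297856) had 3.02, 2.40 and 1.81 CPM in high and 3.72, 5.80 and 3.68 in mid, a gap of less than 1 CPM between the groups (log2 difference -0.86, SE 0.23, edgeR adjusted p 0.00706). It kept its call after the width correction, at -0.93. The most read region, DLK1 and MEG3 region 1 (chr14:101174437-101176550), had 18.4, 21.7 and 22.0 CPM in high and 26.0, 22.4 and 22.8 in mid (log2 difference -0.20, edgeR adjusted p 0.368). Its groups were separate by less than 1 CPM.

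GNAS encodes the alpha subunit of the stimulatory G protein, from a locus whose alternative promoters are imprinted in opposite directions. GNAS region 7 (chr20:57463098-57468287) had 35.0, 34.1 and 32.2 CPM in high and 73.6, 78.8 and 64.7 in mid. The means were 33.8 ± 1.45 and 72.4 ± 7.14 (SD, n = 3), the fitted difference was 2.14-fold, and the log2 difference of -1.09 (SE 0.12, edgeR adjusted p 9.739e-09) was the largest among the 57 members. It was -0.72 after the width correction. GNAS region 3 (chr20:57425419-57428238) had 17.4, 18.5 and 21.0 CPM in high and 34.4, 27.8 and 25.3 in mid (log2 difference -0.61, SE 0.14, edgeR adjusted p 0.00208). GNAS region 2 (chr20:57417320-57419046) had 4.74, 6.83 and 6.82 CPM in high and 13.3, 11.5 and 8.78 in mid (log2 difference -0.85, SE 0.18, edgeR adjusted p 0.00106). After the width correction region 2 kept its call (-0.78) and region 3 lost its call (-0.41, adjusted p 0.0257). All 3 were separated without overlap, and the other 4 regions did not pass, at -0.53, -0.46, -0.24 and -0.12.

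MEST, a hydrolase-family gene, and PEG10, a gene derived from a retrotransposon and needed in the placenta, are both expressed from the paternal copy, and their windows stood apart from the other 6. MEST region 2 (chr7:130129995-130133064) had 18.9, 18.8 and 21.5 CPM in high and 25.01, 21.4 and 20.2 in mid (log2 difference -0.17, edgeR adjusted p 0.460), and MEST region 1 (chr7:130125414-130127165) stood at -0.03 (edgeR adjusted p 0.906). PEG10 region 5 (chr7:94284213-94288696) was the densest of the 57 members, at 19.02 CPM per kb. It had 120.0, 84.4 and 54.6 CPM in high and 96.9, 77.6 and 78.0 in mid, so the high libraries spread on both sides of the mid libraries (log2 difference -0.03, edgeR adjusted p 0.915). PEG10 region 1 (chr7:94261501-94262644) had 5.65, 5.66 and 4.74 CPM in high and 3.94, 2.47 and 3.33 in mid, the only member whose high libraries all lay above the mid libraries. Its log2 difference of 0.72 (SE 0.21) missed the threshold, at an edgeR adjusted p of 0.0135. PEG10 region 1 passed, at an adjusted p of 0.00554, when libraries were scaled by their total counts and, at 0.00924, without the first mid library. Counted without a model, 25 members (43.9%) had every mid library above every high library and 1 (1.75%) the reverse, against 13.0% and 12.9% of all regions.

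Summed over a window, the reads gave a level for each locus. The GNAS window summed to 78.1, 81.0 and 85.9 CPM in high and 151.7, 148.1 and 126.2 in mid, a 1.73-fold higher level in mid and the widest gap of the 8. The CDKN1C window summed to 103.5, 103.4 and 104.2 CPM in high and 192.0, 172.8 and 153.4 in mid, 1.66-fold higher in mid. In the high population this window varied less than the others, while its mid libraries ranged widely. The SNRPN window summed to 59.6, 64.9 and 76.2 CPM in high and 109.1, 95.3 and 96.6 in mid, 1.51-fold higher in mid. The H19 and IGF2 window summed to 118.4, 141.5 and 145.4 CPM in high and 189.0, 182.8 and 172.8 in mid, 1.35-fold higher in mid. Smaller gaps were seen in the next loci. The DLK1 and MEG3 window summed to 51.2, 62.4 and 61.5 CPM in high and 72.0, 81.8 and 74.4 in mid, 1.31-fold higher in mid. The KCNQ1OT1 window summed to 62.8, 71.6 and 77.9 CPM in high and 94.8, 94.7 and 85.4 in mid, 1.298-fold higher in mid. In these 6 windows the groups did not overlap, and each exact permutation test (two-sided, unpaired) gave p = 0.1, the smallest that 3 against 3 samples allow, and 0.133 adjusted over the 8 windows, so that none could pass 0.05 in this test. The MEST window summed to 36.01, 39.6 and 40.5 CPM in high and 46.3, 38.6 and 40.1 in mid (log2 difference -0.10, exact p = 0.5). The PEG10 window summed to 135.1, 97.9 and 69.2 CPM in high and 109.4, 88.7 and 88.5 in mid (log2 difference 0.03, exact p = 1). Both overlapped, and in PEG10 region 5 alone held 86.7% of the reads.

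**Figure D3:**
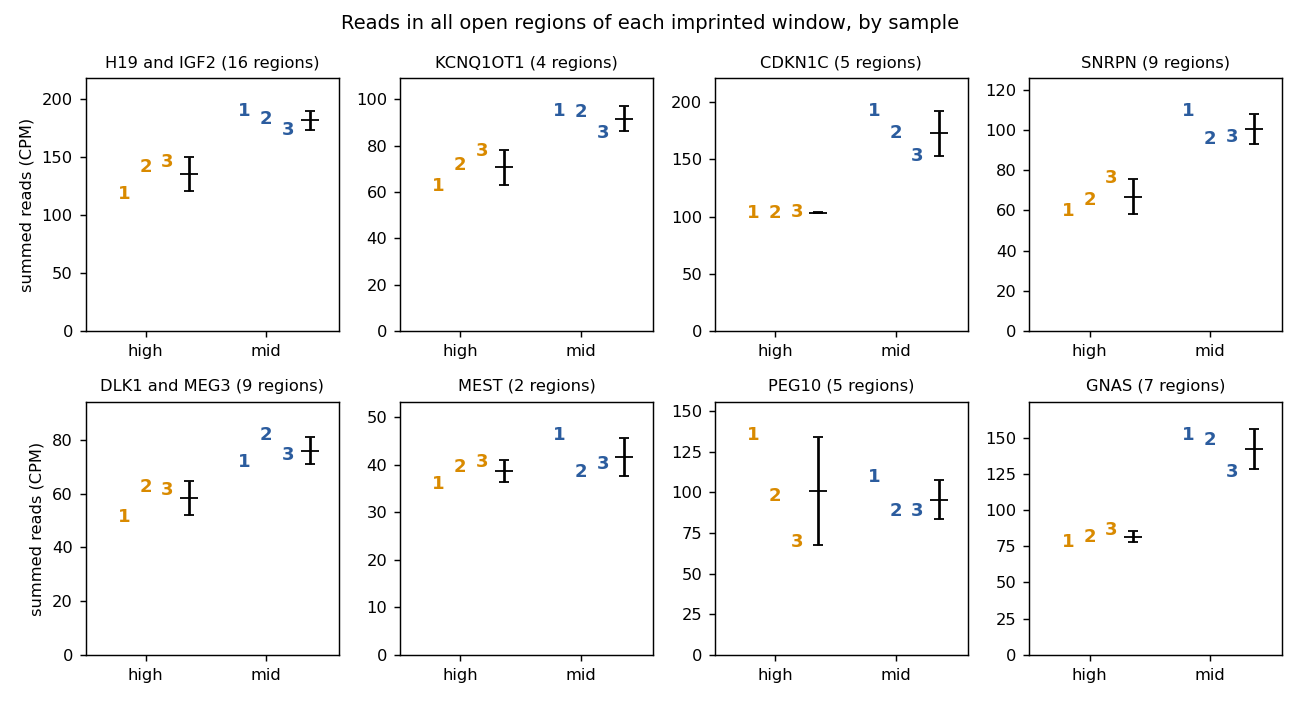
Summed reads of each window in CPM for the 3 high and 3 mid libraries, with each library shown by its replicate number, a dash for the group mean, bars for 1 SD and the axis from 0. High and mid libraries are apart in 6 windows and overlap in MEST and PEG10.

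The size of the gap differed between same-numbered pairs. The log2 difference of pair 1 was the most negative of the 3 pairs in 7 of the 8 windows, at -0.96 in GNAS, -0.89 in CDKN1C and -0.87 in SNRPN. In pair 3 these windows stood at -0.55, -0.56 and -0.34. PEG10 went the other way, with 0.30 in pair 1, 0.14 in pair 2 and -0.36 in pair 3. Single regions carried a large share of some sums, 52.6% in CDKN1C and 47.6% in GNAS. Without those regions the log2 differences of the windows were -0.43 and -0.54, from -0.73 and -0.79 with them. Without KCNQ1OT1 region 1 that window moved from -0.38 to -0.55.

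Regions beside the windows, within 500 kb on either side and in no listed window, served as a local reference. Listed windows included those of the further imprinted genes given below. This left out UBE3A beside SNRPN, and PHLDA2 and SLC22A18 beside CDKN1C and KCNQ1OT1. Their summed reads were also lower in high, by log2 differences of -0.43 (UBE3A) and -0.52 (PHLDA2 and SLC22A18). Flanks with these regions put back were not tested. Their summed reads were also lower in high around 7 of the windows, by log2 differences of -0.47 around GNAS, -0.40 around H19 and IGF2, -0.30 around DLK1 and MEG3, -0.27 around CDKN1C, -0.26 around KCNQ1OT1, -0.19 around SNRPN and -0.19 around MEST, and stood at 0.26 around PEG10. The flanks of H19 and IGF2, of KCNQ1OT1 and of CDKN1C overlap one another on chromosome 11, so their values are not separate. Relative to its flanks the CDKN1C window was lower in high by a log2 difference of -0.46, the SNRPN window by -0.40, the GNAS window by -0.32 and the KCNQ1OT1 window by -0.12, each without overlap between the groups (exact permutation p = 0.1, the smallest possible, 0.2 adjusted). SNRPN had 9 flanking regions, against 32 to 56 for the others, and its difference was -0.25 with flanks of 200 kb and -0.31 with 1000 kb. Flanks were not matched to the windows on region width, the sums were not corrected for it, and its part was not tested. Flanking regions had a median width of 1540 bp around CDKN1C, 696 bp around SNRPN, 870.5 bp around GNAS and 1472 bp around H19 and IGF2. The 5, 9, 7 and 16 regions of these windows covered 14.468, 12.502, 15.067 and 26.918 kb. Their median width was 2678 bp in CDKN1C, 1224 bp in SNRPN and 1727 bp in GNAS, above that of the flanks. In H19 and IGF2 it lay between 1260 and 1314 bp, below that of the flanks. The H19 and IGF2 window differed from its flanks by -0.03 (exact p = 0.5), DLK1 and MEG3 by -0.09 (exact p = 0.4), MEST by 0.08 (exact p = 0.2) and PEG10 by -0.23 (exact p = 0.4). For H19 and IGF2 the difference of the window was thus of the size of that around it, and at flanks of 200 kb and 1000 kb it stood at -0.11 and -0.10.

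**Figure D4:**
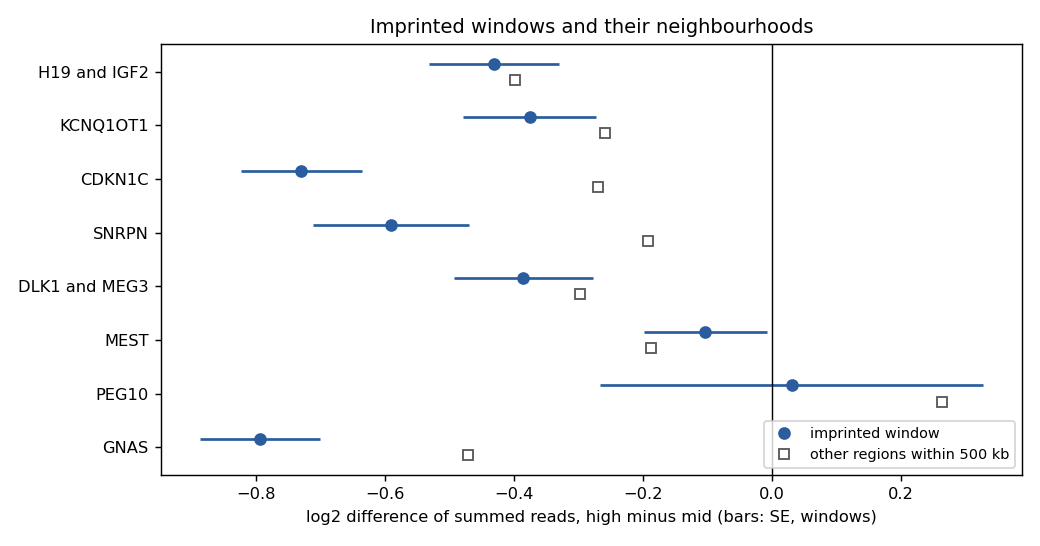
Log2 difference of summed reads, high minus mid, for each window (filled points, with bars for 1 standard error, 3 libraries a group). Open squares show the other regions within 500 kb that lay in no listed window. The window lies furthest from its flanks in CDKN1C (-0.73 against -0.27), SNRPN (-0.59 against -0.19) and GNAS (-0.79 against -0.47).

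A further 16 windows at other imprinted genes, placed from approximate hg19 positions, held 85 regions, with no region in 1 of them. Of these 85 regions, 2 were called higher in mid and 0 higher in high, against 3.77% and 2.32% of all regions, and 44 (51.8%) had a log2 difference below 0, with a median of -0.01 and a median width of 958 bp. The called ones were chr11:2947615-2953256, in the window of PHLDA2 and SLC22A18 next to CDKN1C (log2 difference -0.55, edgeR adjusted p 0.0012), and chr20:36147819-36150285, in the window of NNAT and BLCAP (log2 difference -0.57, edgeR adjusted p 0.00868). Both were among the widest 10% of regions. At an adjusted p under 0.05, 8 of the 85 were higher in mid and 2 higher in high, against 7.08% and 6.03% of all regions. The summed log2 difference ran from -0.52 in PHLDA2 and SLC22A18 and -0.47 in NNAT and BLCAP to 0.29 in RB1 and 0.35 in DIRAS3, with IGF2R, a scavenger receptor of IGF2, at 0.04.

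The pluripotency genes POU5F1, SOX2 and NANOG held regions with reads in both populations. Only regions called open in these libraries were counted, and no genes of other lineages were set beside them. These values are therefore no check of the labelled cell type. The POU5F1 window held 3 regions that summed to 82.6 ± 9.00 CPM in high and 111 ± 2.20 in mid (SD, n = 3), and its region of 5123 bp (chr6:31136792-31141914) was called higher in mid (log2 difference -0.45, edgeR adjusted p 0.00869). SOX2 summed to 81.2 ± 14.5 CPM in high and 105 ± 23.4 in mid, and NANOG to 28.1 ± 2.13 and 36.9 ± 5.58, with 0 called regions in each. Their summed log2 differences of -0.43, -0.36 and -0.39 were within the range of the imprinted windows.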

How the data were processed

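The counts table was deposited by the authors as whole-number read counts of FAST-ATAC libraries over 118556 regions, not normalized. Per the submitters' processing notes and the study's methods, reads were trimmed (Trimmomatic), aligned to hg19 (BWA 0.7.15, SAMtools 0.1.19), stripped of duplicates, shifted for Tn5, and regions were called with MACS (1.4.2 in the notes) on alignments combined across replicates, merged between the high and mid populations, cleared of blacklisted regions and counted with bedtools. The mid libraries gave more reads to the calling, and the effect of this on the comparison was not tested. Starts were read as 0-based and printed 1-based.

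All regions were fitted with edgeR 4.0.16 (R 4.3.3, limma 3.58.1): quasi-likelihood test, TMM scaling, no filter, replicate number as a block, Benjamini-Hochberg over all regions, called under 0.01. The SE is the log2 difference over the square root of F. Replicate numbers come from the titles. Deviations of same-numbered high and mid libraries correlated at 0.308, 0.202 and 0.233 over regions and others at -0.256 to 0.063, so the numbers were taken to pair the libraries. Window and flank sums used exact permutation tests over samples, which do not use the pairing. The script was tested on simulated data that held no replicate effect and no trend with width, so the test did not cover these. DESeq2 1.42.0, other scalings, loess corrections (span 0.3) and left-out libraries were alternatives.

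The members and lists were chosen with earlier results of these data known, and the split at the widest 10% of regions was made after seeing the data. Named regions are every called member and, in each window, the region with most reads and that with the largest difference. SNRPN region 9, MEST region 1 and the regions named outside the windows were chosen after their values were seen. Positions of the further imprinted and pluripotency windows are approximate and were not checked against an hg19 annotation. Depth limits the precision of weak regions, the lowest of which had 19 reads in a library.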

Additional observations from a re-analysis of the deposited data

How the results depend on the processing

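The 15 members higher in mid became 3 with no replicate block, 9 with libraries scaled by total counts and 8 with the width correction, and 2 to 13 when 1 library or pair was left out. The share of all regions called higher in mid went from 3.77% to 1.11%, 2.68% and 2.45% in the first 3 of these fits. It ran from 0.364% to 4.64% with a library or pair left out. Of the 15 calls, 12 remained with pair 1 as a batch of its own, 11 in DESeq2 and 11 with the correction for read density. All 15 remained under RLE or upper-quartile scaling or a filter on low counts. DESeq2 gave no adjusted p for DLK1 and MEG3 region 7, which was counted as not called. CDKN1C region 3 and GNAS region 7 kept their calls in 18 of 18 alternative fits, SNRPN region 3 in 15 and SNRPN region 7 in 5. These fits are not 18 separate checks. With the block kept, a fit without 1 library gave nearly the same differences as the fit without its pair. None of the 15 changed direction, but all were below 0 in each same-numbered pair, so this is not separate support. The 0 members higher in high became 1 with total counts, 1 at an adjusted p under 0.05 and 0 to 1 with a library left out. Of all regions, 2747 were called higher in high in the main fit, 4971 with total counts and 371 to 3815 with a library or pair left out. At an adjusted p under 0.05, 7.08% of all regions were higher in mid and 6.03% higher in high. The 2 calls higher in mid at other imprinted loci became 0 with no replicate block, 0 with either loess correction, 4 with RLE, 4 with upper quartile, 1 with total counts, 8 at an adjusted p under 0.05 and 0 to 5 with a library left out, and the 0 higher in high became 1 with total counts, 2 at 0.05 and 0 to 1. Scaling by total counts moved the median difference of all regions from 0.03 to 0.12 on the log2 scale. Against flanks of 200 kb and 1000 kb, H19 and IGF2 stood at -0.11 and -0.10, and SNRPN at -0.25 and -0.31. Without the most read region the sums stood at -0.55 in KCNQ1OT1, -0.43 in CDKN1C and -0.54 in GNAS. The cause of these shifts was not tested. With 1 library left out the PEG10 sum ranged from -0.21 to 0.27 and the MEST sum from -0.17 to 0.03. With 3 against 3 samples the unpaired exact permutation test of a window could not pass 0.05. Regions of few reads had the largest standard errors, 0.31 in SNRPN region 9 against 0.12 in CDKN1C region 3.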
